A study of Caenorhabditis elegans with 2 samples.

Results

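The cytosolic ribosomal protein genes of Caenorhabditis elegans were taken as the protein-coding genes whose symbol is rpl- or rps- followed by a number. There were 78 of them, 47 for the large ribosomal subunit (rpl-) and 31 for the small subunit (rps-), among 19985 protein-coding genes of the Ensembl annotation. The remaining 19907 protein-coding genes served as the background. ZIP-11 is a bZIP (basic leucine zipper) transcription factor, and its binding was assayed by chromatin immunoprecipitation with sequencing (ChIP-seq) in 2 samples, labelled as biological replicates 1 and 2 of a single group. Both were whole animals of strain OP761 at the L4 larval stage, 52.5 hours old, grown from a culture synchronised by bleaching and starvation at L1. All animals carried the transgene wgIs761, in which ZIP-11 is fused to a TY1, EGFP and 3xFLAG tag, together with an unc-119(+) rescue in the unc-119 (tm4063) background. Chromatin was sonicated and precipitated with an anti-GFP antibody, so the values follow the tagged protein and are summed over every tissue of the animal. There was no second condition and no untagged group, and binding was therefore compared between genes, with no test between groups.

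A ribosome joins a small subunit, which decodes the mRNA, to a large subunit, which forms the peptide bonds and releases the chain through an exit tunnel. Each cytosolic ribosomal protein is made in an amount that matches the others, from many genes scattered over the genome, and growing larvae transcribe these genes at a high level. In C. elegans many transcripts receive a spliced leader at their 5′ end by trans-splicing, so an annotated start is often the splice site and not the place where transcription began. Proteins of the bZIP family bind DNA as dimers through a basic region, commonly at palindromic or near-palindromic sites.

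The DNA under the summit, the base of highest enrichment within a peak, is shown for 6 ribosomal protein genes whose sequence is printed here, because words shared between these summits are described further on. Each line gives 101 bases centred on the summit on assembly WBcel235, read from the RefSeq genome in the direction of the gene. The windows lie at chrIII:3867512-3867612 for rpl-3, chrIII:7854625-7854725 for rpl-35, chrIII:4475619-4475719 for rps-1, chrIV:4749995-4750095 (minus strand) for rpl-20, chrIV:654893-654993 (minus strand) for rpl-15 and chrIV:5946748-5946848 (minus strand) for rps-25. None of the printed bases is annotated as UTR. Capitals mark the words TACGGT and AAGTGTA, or their complements ACCGTA and TACACTT. The first 5 windows lie upstream of a gene, and the rps-25 window, which holds neither word, lies past the gene's end.
rpl-3: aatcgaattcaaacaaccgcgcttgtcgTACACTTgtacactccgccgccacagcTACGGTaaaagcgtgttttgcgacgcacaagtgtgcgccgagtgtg
rpl-35: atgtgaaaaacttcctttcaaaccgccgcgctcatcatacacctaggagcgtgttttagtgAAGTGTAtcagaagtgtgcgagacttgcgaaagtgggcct
rpl-20: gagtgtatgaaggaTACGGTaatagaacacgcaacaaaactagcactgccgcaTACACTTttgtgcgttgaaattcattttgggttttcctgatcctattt
rpl-15: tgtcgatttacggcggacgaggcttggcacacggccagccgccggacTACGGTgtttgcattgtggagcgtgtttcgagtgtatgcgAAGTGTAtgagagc
rps-1: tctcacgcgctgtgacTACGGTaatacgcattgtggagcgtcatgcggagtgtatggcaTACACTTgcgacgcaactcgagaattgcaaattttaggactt
rps-25: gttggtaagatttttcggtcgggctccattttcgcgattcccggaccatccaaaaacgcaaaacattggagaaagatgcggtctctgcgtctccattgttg

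Peaks near ribosomal protein genes were found at 11 of the 78 genes (14.1%, 95% Wilson interval 8.06 to 23.5%). A gene was counted when the summit of a peak of the authors' pooled thresholded list, 364 peaks with a global irreproducible discovery rate (IDR) under 0.01, lay within 1000 bp of one of its annotated transcription start sites (TSS). The IDR is the share of peaks at or above a given rank that are estimated not to recur between inputs. Among other protein-coding genes 212 of 19907 met the same rule, or 1.06%, so the share was 13.2 times as large among ribosomal protein genes and the difference was 13.0 percentage points. No test was run on this difference, since the genes were chosen as a group with earlier results of these data known. Most ribosomal protein genes, 67 of 78, had no thresholded summit within 1000 bp.

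The 11 summits fell into 2 places. At 8 genes the summit lay in the promoter, from 500 bp upstream to 100 bp downstream of a TSS, which is 10.3% of ribosomal protein genes (5.29 to 19.0%) against 0.462% of other protein-coding genes. At the remaining 3 genes it lay past the gene end, 3.85% of ribosomal protein genes against 0.0954% of other genes. The conservative list held 1 of these 3 summits, at rps-6, which is 1.28% of ribosomal protein genes against 0.0854% of other genes. The list of each sample alone held none of them, against 0.0352% of other genes in replicate 1 and 0.0201% in replicate 2. In this list many summits lie at tRNA, snoRNA, snRNA, rRNA or miRNA genes, and a short noncoding TSS within 250 bp was therefore counted apart. Without such summits 10 ribosomal protein genes (12.8%) were left within 1000 bp, against 0.648% of other genes, and 7 in the promoter (8.97%, 4.42 to 17.4%), against 0.286% of other genes. Of the 64 protein-coding genes with a promoter summit and no short noncoding gene near it, 7 were thus ribosomal protein genes (10.9%), while ribosomal protein genes made up 0.390% of all protein-coding genes. Ordered by signal value among these 64, they stood at places 9, 10, 19, 21, 26, 29 and 32.

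**Figure D1:**
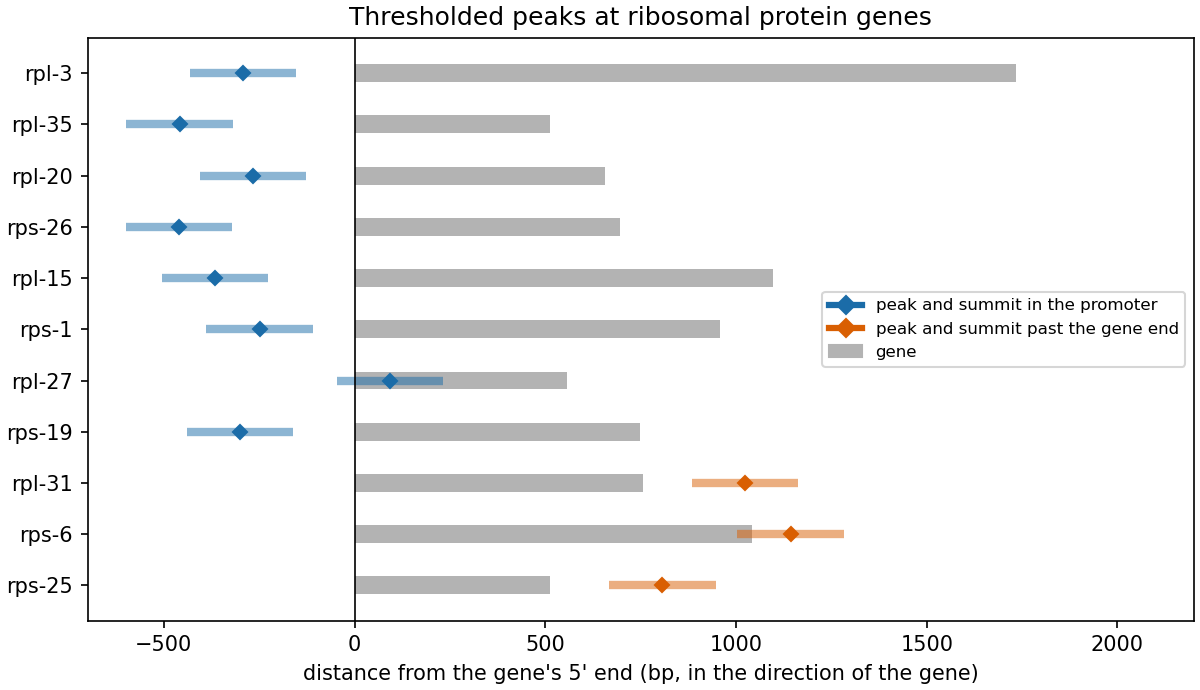
Position of the thresholded peak (bar) and its summit (diamond) at the 11 ribosomal protein genes, in bp from the 5′ end of the gene and in the direction of the gene, with the gene as a grey bar. The 7 upstream promoter summits sit 249 to 460 bp before the gene, the rpl-27 summit sits 93 bp inside it, and 3 summits sit past the gene end.

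The strongest ribosomal protein gene was rpl-3 on chromosome III, whose product lies near the peptidyl transferase centre of the large subunit. Its summit lay 292 bp upstream of the TSS, in the peak at chrIII:3867422-3867701, with a signal value of 196.7 in the pooled list, which ranked it 25 of 364. The signal value is the authors' measure of ChIP over control and is compared only within a list. In the samples' own ranked lists the same position had 103.9 in replicate 1, at rank 35 of 51611 peaks, and 90.3 in replicate 2, at rank 27 of 53307. It was the one ribosomal protein gene with a peak in the thresholded lists of both samples, and its global IDR was 0.000257. The TSS of rpl-3 was the nearest of any gene.

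The gene rpl-35 encodes a large subunit protein near the mouth of the exit tunnel. Its summit lay 459 bp upstream of the TSS, in the peak at chrIII:7854535-7854814, with a pooled signal value of 114.6 (rank 50) and a global IDR of 0.000679. The value was 66.6 in replicate 1 and 51.8 in replicate 2, at ranks 69 and 82 of their own lists, and only the thresholded list of replicate 1 held the peak. The rpl-20 summit, 267 bp upstream of the gene for another large subunit protein, lay in chrIV:4749905-4750184 with a pooled value of 91.3 (rank 92). It had 35.5 in replicate 1 and 54.8 in replicate 2, at ranks 413 and 71, and the TSS of the divergent gene Y17G9B.5 was nearer, at 195 bp. For rpl-15, also of the large subunit, the summit lay 367 bp upstream in chrIV:654803-655082, with a pooled value of 87.5 (rank 107). It had 52.8 in replicate 1 and 35.4 in replicate 2, at ranks 110 and 324. The nearest other coding TSS, of K11H12.8, was 447 bp from that summit, and the nearest snoRNA TSS, of K11H12.13, was 582 bp away.

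The last large subunit gene with a promoter summit was rpl-27, and it was the one gene of the 8 whose summit lay downstream of the TSS, by 93 bp and in its own coding sequence. The pooled value was 76.4 (rank 180), with 36.2 in replicate 1 and 39.2 in replicate 2, at ranks 378 and 212. Neither sample's thresholded list held this peak, while the conservative list, 329 peaks drawn from the 2 samples, did.

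Among small subunit genes the promoter summits were at rps-26, rps-1 and rps-19. The product of rps-26 lies at the exit channel for the mRNA. Its summit lay 460 bp upstream with a pooled value of 88.1 (rank 102), 39.9 in replicate 1 (rank 251) and 52.0 in replicate 2 (rank 81). This is the promoter summit with a short noncoding gene near it: the snoRNA gene F39B2.14 had its TSS 58 bp away, and the TSS of tmem-107 was 3 bp away. The 3 genes cannot be told apart as the source of that peak. For rps-1, the counterpart of human RPS3A, the summit lay 249 bp upstream in chrIII:4475529-4475808 with a pooled value of 80.7 (rank 152). By rank the samples were farthest apart here: replicate 1 had 62.3, at rank 74, and replicate 2 had 19.3, at rank 9292. The peak was in the list of replicate 1 and not in the conservative list. That summit lay in an exon of the noncoding RNA gene F56F3.10, and the TSS of another one, F56F3.11, was 12 bp away.

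The gene rps-19, whose human counterpart is mutated in Diamond-Blackfan anaemia, had its summit 301 bp upstream with a pooled value of 72.7 (rank 206). It had 32.0 in replicate 1 and 44.1 in replicate 2, at ranks 695 and 137. The TSS of the divergent gene hsr-9 was nearer, at 144 bp. By subunit, 5 of 47 large subunit genes and 3 of 31 small subunit genes had a promoter summit, and 6 (12.8%) and 5 (16.1%) had one anywhere within 1000 bp, so both subunits were represented.

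The 3 summits past a gene end were weaker. The rpl-31 summit, at a large subunit protein gene, lay 268 bp past the end, in an exon of the long noncoding RNA gene linc-1. Its pooled value was 65.4 (rank 281), with 43.0 in replicate 1 and 20.9 in replicate 2, at ranks 197 and 6450. The gene rps-6, whose product is phosphorylated by S6 kinase, had its summit 101 bp past the end with 61.4 (rank 322). It had 29.1 in replicate 1 and 36.3 in replicate 2, at ranks 1147 and 288. For rps-25, of the small subunit, the summit lay 295 bp past the end in chrIV:5946658-5946937 with 53.9 (rank 342). It had 31.3 in replicate 1 and 27.1 in replicate 2, at ranks 780 and 1548, and the TSS of inx-7 was 160 bp away. The first 2 were counted through a downstream TSS of the gene, since from the most upstream TSS their summits lay 1023 bp and 1143 bp away. Just inside the 1000 bp limit stood rps-25, at 807 bp from its TSS. Just outside it stood rpl-4, with a summit of 67.8 at 1539 bp, and rpl-22, with a summit of 64.8 at 1866 bp and a short noncoding TSS 38 bp from it, both past the gene end.

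Most of the 11 peaks were not called in a single sample. Only rpl-3 was in the thresholded lists of both samples, 4 genes were in one of them, and 6 were in neither, while 8 were in the conservative list. Counted in each list alone, ribosomal protein genes with a summit within 1000 bp numbered 8 in the conservative list, against 0.884% of other genes. They numbered 4 (5.13%) in the list of replicate 1, 155 peaks, against 0.407% of other genes, and 2 (2.56%) in that of replicate 2, 108 peaks, against 0.251%. Other genes fell too, from 212 in the pooled list to 176 in the conservative list, 81 in replicate 1 and 50 in replicate 2. The fall is thus not particular to ribosomal protein genes. How many other genes were in both samples' lists or in neither is not given here. The printed value was higher in replicate 1 at 6 of the 11 summits, but the scale differs between the samples' lists, so this count does not compare the replicates. Across the 66 ribosomal protein genes with a ranked summit in both samples, the log2 of the highest signal value correlated with Pearson's r = 0.46 (Spearman's rho = 0.35), and with r = 0.35 (rho = 0.31) without rpl-3. The highest values of a gene in the 2 samples can come from different peaks within 1000 bp, so these correlations do not measure agreement at the same sites. No such correlation is given for other genes. They are descriptions across genes of the same 2 libraries, and genes are not independent replicates.

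**Figure D2:**
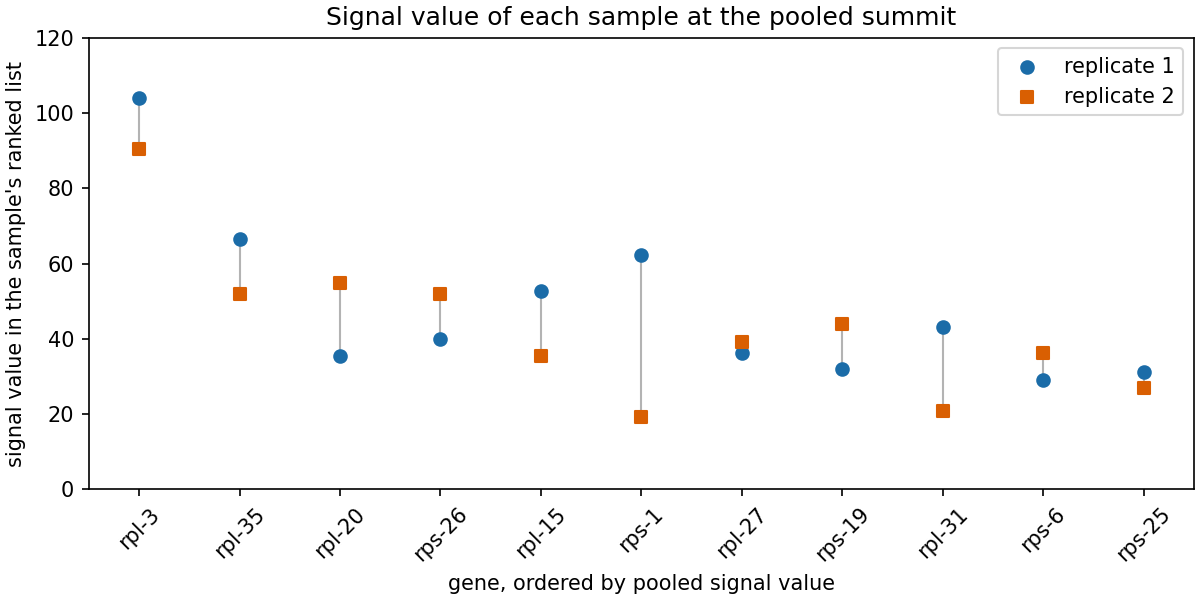
Signal value of replicate 1 and replicate 2, each from its own ranked list, at the 11 summits near ribosomal protein genes. Within each sample rpl-3 has the highest value of the 11, 103.9 and 90.3. The scale differs between the samples' lists. By rank the samples are farthest apart at rps-1, with 62.3 at rank 74 in replicate 1 and 19.3 at rank 9292 in replicate 2.

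The ranked list was used to describe every gene, those with and without a thresholded summit. The pooled ranked list, 111547 peaks without a limit on the IDR, had a summit within 1000 bp of 77 of the 78, the exception being rps-28, against 90.3% of other genes. The highest value per gene had a median of 35.8 over ribosomal protein genes, with quartiles of 30.5 and 47.0, and a median of 26.9 over other protein-coding genes, with quartiles of 20.9 and 33.5. A value in the upper 5% of the ranked list was reached by 38 ribosomal protein genes (48.7%) and by 13.0% of other genes. The 38 include all 11 genes with a thresholded summit. Among the 67 ribosomal protein genes without one, 27 (40.3%) reached it and the median was 34.1, against 12.1% and a median of 26.8 among 19695 other genes without one. These are descriptions, with no test. The median number of ranked summits was 3 per gene in both groups, although their density, given below by position, was higher at ribosomal protein genes in some stretches. The lowest gene with a ranked summit was rpl-33, at 20.8. The genes rps-28 and rpl-33 are named after their values were seen.

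**Figure D3:**
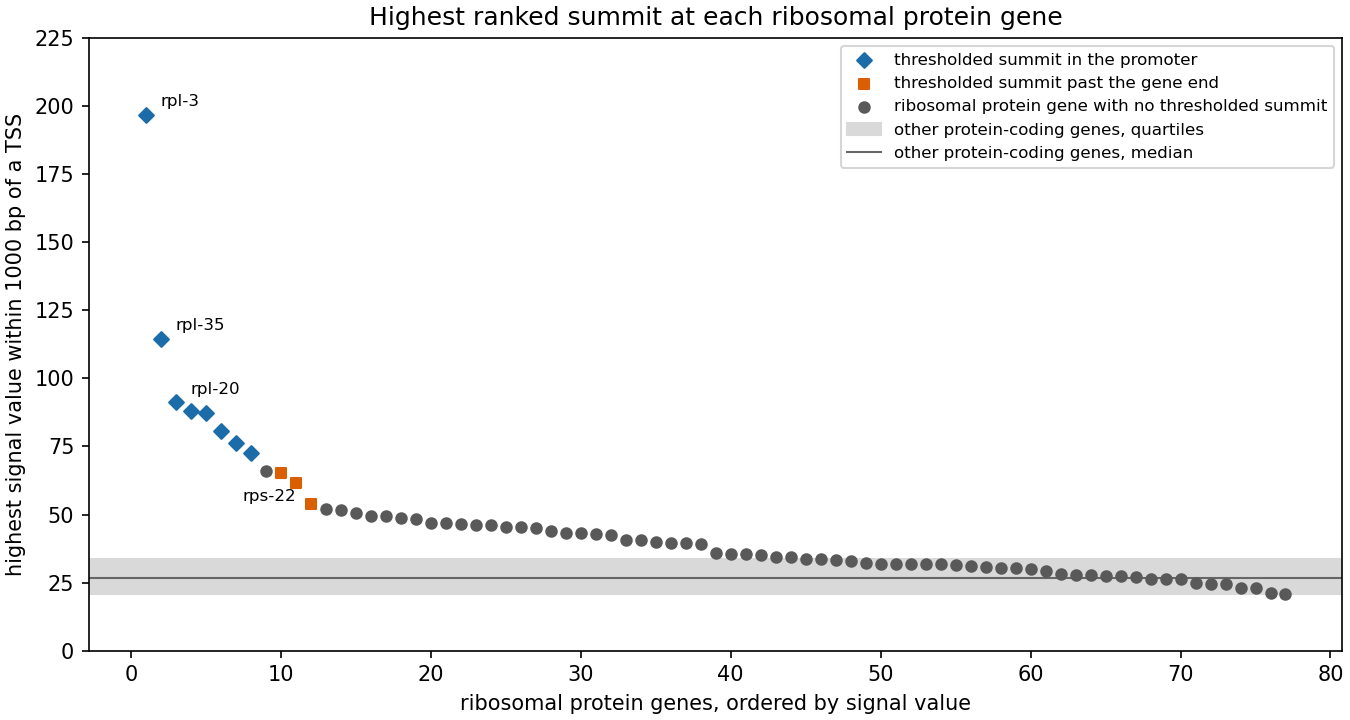
Highest signal value of the pooled ranked list within 1000 bp of a TSS, for the 77 ribosomal protein genes with such a summit in falling order, with colour for the place of a thresholded summit and a grey band for the quartiles of other protein-coding genes. The gene rpl-3 stands at 196.7 and rpl-35 at 114.6, and rps-22, at 65.8 without a thresholded summit, stands among the genes with one.

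Of the 10 highest genes without a thresholded summit, rps-22 of the small subunit stood first, with 65.8 at 916 bp from its TSS and past the gene end, and its global IDR was 0.509. Its values at that position were 26.3 in replicate 1 and 33.8 in replicate 2. The next were rpl-14 with 52.0, rpl-7A with 51.7, rpl-24.2 with 50.5, rpl-1 with 49.6 and rps-3 with 49.6, followed by rps-20, rpl-12, rps-17 and rpl-41.2 with 48.7, 48.6, 47.0 and 46.8. Those of rpl-14, rpl-7A and rpl-24.2 lay upstream, by 310, 50 and 170 bp, and passed an IDR of 0.05. At that level 14 ribosomal protein genes (17.9%, 11.0 to 27.9%) had a summit within 1000 bp, against 2.59% of other genes, and 11 had one in the promoter, against 1.02% of other genes.

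Ribosomal protein genes are short. Their median length was 753.5 bp, against 2032 bp for other protein-coding genes, and 62 of 78 (79.5%) were under 1000 bp long, against 18.1% of others. Among genes under 1000 bp, 8 of 62 ribosomal protein genes (12.9%) and 43 of 3597 other genes (1.20%) had a thresholded summit. Past the gene end, 2 of the 62 short ribosomal protein genes had one (3.23%, 0.889 to 11.0%), against 0.417% of the other short genes. Among the 77 ribosomal protein genes and 17983 other genes with a ranked summit, the highest lay past the gene end at 20 (25.97%) against 3.87%. It lay in the promoter at 24 (31.2%) against 31.0%. These shares were not matched for length. A summit within 1000 bp of a TSS more readily lies past the end of a short gene.

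**Figure D4:**
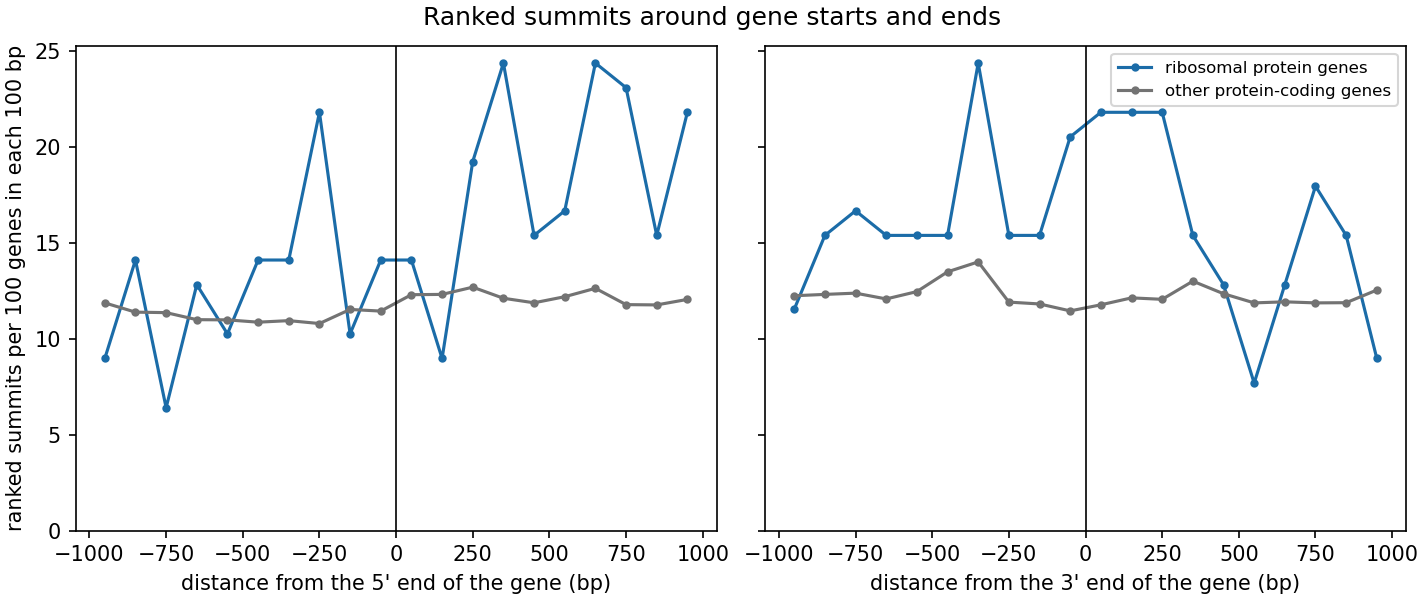
Summits of the pooled ranked list per 100 genes and 100 bp, by distance from the gene start and from the gene end, for ribosomal protein genes and other protein-coding genes. In the first 300 bp past the gene end the density is 21.8 for ribosomal protein genes and 11.99 for other genes.

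The density of ranked summits was taken at both gene ends. From 500 bp upstream to the start it was 14.9 summits per 100 genes and 100 bp at ribosomal protein genes, against 11.1 at other genes. In the first 300 bp past the gene end it was 21.8, from 51 summits, against 11.99. Farther upstream, from 1000 to 500 bp, it was 10.5 at ribosomal protein genes and 11.3 at other genes. Over 200 to 1000 bp downstream of the start it was 20.03 at ribosomal protein genes and 12.1 at other genes, a stretch that runs past the end of most ribosomal protein genes. From 300 to 1000 bp past the gene end it was 13.0 and 12.2. Without rps-26 and its snoRNA neighbour, the 7 promoter summits of ribosomal protein genes, rpl-27 included, had a median position of 292 bp upstream, and 6 of them lay more than 200 bp upstream. Among 53 other genes with their strongest thresholded summit in the promoter and no short noncoding gene near, the median was 193 bp upstream and 24 (45.3%) lay more than 200 bp upstream.

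The neighbourhood of the genes was counted in the same way. A snoRNA gene lies inside 13 ribosomal protein genes, 19 snoRNA genes in all. Of these 13 hosts 1, rpl-15, had a thresholded summit within 1000 bp, beside 14.1% of all 78 ribosomal protein genes. With 13 hosts this count does not separate them from the rest. The highest ranked value inside a host was 46.1, at rps-13, and the median was 31.9 over the hosts with a ranked summit inside. This median was not set against other genes. A divergent upstream neighbour was present at 53 ribosomal protein genes, 6 of them with a thresholded promoter summit, and a tandem one at 25, 2 of them with such a summit. Over all 78 genes the share with such a summit was 10.3%, and no difference from it was tested. At 5 of the 11 genes the gene's own TSS was the nearest of any gene, and at the other 6 another TSS was nearer. Whether those peaks belong to the ribosomal protein gene or to its neighbour cannot be told apart in these data.

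Other genes of protein synthesis were counted by the same rule. Of 6 ribosomal proteins with symbols outside the rpl- and rps- pattern none had one, and neither did any of 34 initiation factors, 8 elongation and release factors, 32 aminoacyl-tRNA synthetases and 10 subunits of RNA polymerases I and III. Of 70 mitochondrial ribosomal protein genes 2 had one (2.86%), mrpl-23 with 114.97, where a short noncoding TSS lay 14 bp from the summit, and mrpl-32 with 68.9 at 325 bp upstream. Of 21 genes of ribosome assembly only pro-1 had one, with 69.5 at 95 bp upstream. At an IDR of 0.05, 3 of 70 mitochondrial ribosomal protein genes had a summit, against 2.59% of other protein-coding genes. So did 1 gene each of the elongation and release factors, synthetases, polymerase subunits and ribosome assembly. At the thresholded level the share of protein-coding genes outside the ribosomal set was 1.06%. These lists are too small to be set apart from that share, and no test was run.

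**Figure D5:**
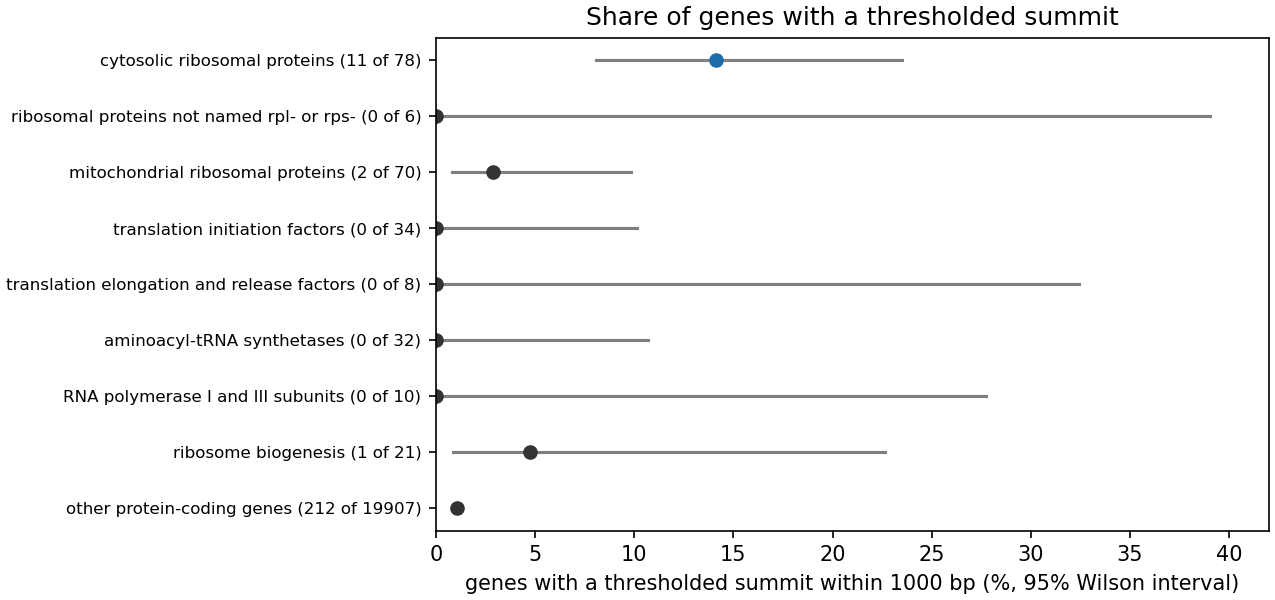
Percent of genes with a thresholded summit within 1000 bp of a TSS, for ribosomal protein genes, other lists of protein synthesis genes and other protein-coding genes, with 95% Wilson intervals. Ribosomal protein genes stand at 14.1% and other protein-coding genes at 1.06%, and most of the remaining lists stand at 0.

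The summits were searched for 12 motifs on both strands. Among them were 4 motifs bound by families of bZIP proteins, and none of the 4 was in any of the 8 promoter summit windows of 101 bp. Each is rare in such windows: of the 16253 ranked promoter windows 3.58% held TGACGT and 2.94% held TGANTCA, while TGATGNAA was in 2.43% and the palindrome in 0.597%. With 8 windows a count of 0 does not separate these summits from the others. In the 500 bp upstream of the TSS, TGACGT was found at 7 of 78 ribosomal protein genes (8.97%) and 15.6% of other genes, TGANTCA at 11.5% and 15.2%, and TGATGNAA at 7.69% and 12.4%. Among the 8 genes with a thresholded promoter summit TGATGNAA was in the promoters of rpl-15 and rpl-20, and TGACGT in that of rps-19. The longer palindrome TGACGTCA, which contains TGACGT, was in 0 of 78 ribosomal protein promoters and in 2.64% of other promoters. The pyrimidine-rich TTTNCAG, the splice acceptor of C. elegans, was in 85.9% of ribosomal protein promoters and in 63.3% of others, and TATAAA in 53.8% and 54.0%. The other motifs were CACGTG, in 1.28% of ribosomal protein promoters and 8.64% of others, GAGAGA (38.5% and 29.9%), GTTCGA (17.9% and 15.4%), CTGCGTCT (6.41% and 5.29%), CACTCGGC (1.28% and 0.533%) and GGGCGG (10.3% and 10.9%). Within the 8 promoter summit windows CACTCGGC was found at rpl-3, against 0.185% of 16253 windows at ranked promoter summits, and GGGCGG at rps-19, against 2.87%. The word CACTCGGC came from an earlier search of these same data, so its match at rpl-3 and the share beside it carry no weight as evidence. At the 3 summits past a gene end CACGTG was found at rpl-31, GGGCGG at rps-6 and CTGCGTCT at rps-25. Of the ranked promoter windows 1.94% held CACGTG, 2.87% GGGCGG and 1.25% CTGCGTCT. No share was taken for windows past a gene end, and with 12 motifs searched these matches cannot be judged. The GC content of the promoters had a median of 33.7% over ribosomal protein genes and 33.8% over other genes. These matches are descriptions of letters in a window.

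A search of all words of 6 to 8 bases, made after the sequences were seen, found 17 words or their complements in at least 4 of the 8 promoter summit windows, many of them overlapping. Of these, 3 are described, chosen after their counts were seen. The heptamer AAGTGTA was in 5 of the 8, those of rpl-3, rpl-35, rpl-20, rpl-15 and rps-1, which are the 5 printed windows upstream of a gene. It was in 1 of 47 windows at thresholded promoter summits of other genes and in 1.66% of 16253 windows at ranked promoter summits. The hexamer TACGGT was in 4 of the 8, those of rpl-3, rpl-20, rpl-15 and rps-1, in 5 of the 47 and in 2.97% of the ranked windows. It is given because it was the word found in the most promoters of the other ribosomal protein genes. The hexamer GCATAC was in 5 of the 8, those of rpl-20, rpl-15, rps-1, rpl-27 and rps-19, in 0 of the 47 and in 2.08% of the ranked windows. Its windows include those of rpl-27 and rps-19, which held neither of the other 2 words.

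The words were spread differently over the promoters of the other ribosomal protein genes. Over 500 bp upstream, TACGGT was in 32 of the 70 without a thresholded promoter summit (45.7%) and in 13.8% of other protein-coding promoters. It was picked for its count in these 70 promoters, so that difference carries no weight as evidence. The word AAGTGTA was in 2 of those 70 (2.86%), at rpl-38 and rpl-5, which are named after their values were seen, and in 7.93% of other protein-coding promoters. The word GCATAC was in 3 of those 70 and in 8.81% of other protein-coding promoters. Among those 70 genes the highest ranked promoter summit had a median signal value of 28.2 with TACGGT, over the 23 of 32 with a ranked promoter summit, and of 22.4 without it, over 29 of 38. At other protein-coding genes the ranked promoter windows had a median of 19.1 with TACGGT and 18.4 without, and of 18.1 with AAGTGTA and 18.4 without. These medians are over all such peaks, split by the word within the 101 bp summit window. Those of the 70 genes are over the highest peak per gene, split by the word anywhere in the 500 bp. The measures are unlike and cannot be set against each other. The words were picked from the 8 windows themselves, and the 3 described were chosen with their other counts seen. All these counts are therefore descriptions, with no test.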

How the data were processed

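ZIP-11 binding was measured by ChIP-seq in 2 samples of 1 group of whole L4 larvae. The authors deposited peak lists on assembly ce11, the same sequence as WBcel235. Thresholded and ranked lists were given for each sample, for both pooled and for a conservative set. The authors' signal values express ChIP relative to control and were compared only within a list, and the deposited −log10 global IDR gives each ranked peak's reproducibility. All 364 pooled thresholded peaks had an IDR under 0.01, which was checked. Which aligner and peak caller were run is not given in the sources used here. No list gives read counts, so depth is unknown, and intervals cover counting error over genes only. The 8 columns of input signal in the ranked lists were not used.

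Genes, TSS and noncoding genes came from Ensembl release 115, and sequences from the RefSeq genome of WBcel235. Summits were assigned to every gene with a TSS within 1000 bp. A sample's value at a pooled summit is that of the covering peak in its own ranked list, in place of the list comparing both samples. Shares have 95% Wilson intervals. The assignment was tested on simulated data. Python 3.11.15, pandas 2.3.3, NumPy 2.4.6, SciPy 1.17.1 and Matplotlib 3.10.9 were used.

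Genes, 7 lists of protein synthesis genes and 12 motifs were chosen with earlier results of these data known. The text names every ribosomal protein gene with a thresholded summit, the 10 of highest ranked signal value without one, and up to 4 such genes of each list. Alternatives were other windows, assignment to the nearest gene, other lists and IDR levels, and each sample alone. A background without mitochondrial DNA, one of genes under 1000 bp and the word search were added after seeing the data.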

Additional observations from a re-analysis of the deposited data

How the results depend on the processing

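The 11 ribosomal protein genes with a thresholded summit became 2 with a window of 250 bp, 5 when a summit went only to the nearest gene of any type, 7 when it went only to the nearest protein-coding gene and 7 in the upper 50% of peaks by signal. The 7 with a promoter summit and no short noncoding gene near it became 2 at 250 bp and 4 by the nearest gene of any type. The difference of 13.0 percentage points from other protein-coding genes became 2.24 at 250 bp, 5.99 by the nearest gene of any type, 8.12 by the nearest protein-coding gene and 8.46 in the upper 50% by signal. With 1 replicate left out, so that the other sample's own list was used, the counts ranged from 2 to 4 within 1000 bp and from 1 to 4 in the promoter, and the difference from 2.31 to 4.72 points. Each of these alternatives holds or assigns fewer peaks by construction. The remaining alternatives kept each count within 1.5 times, among them the conservative list with 8 genes, an IDR of 0.05 with 14 and the most upstream TSS only with 9. The difference within 1000 bp or less stayed positive under all alternatives run. The count past the gene end, 3, was 1 in the conservative list, against 0.0854% of other genes. It was 0 in either sample's own list, against 0.0352% of other genes in replicate 1 and 0.0201% in replicate 2. Depth is unknown, so a gene without a peak is not shown to be unbound. No paired analysis was possible because there was 1 group.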
